A study of Homo sapiens with 6 samples.

Results

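The sites described here are the 300 thymines on chromosomes 16 to 22 that the authors listed as 5-formyluracil, out of 967 over the whole genome. They were chosen by chromosome alone, and no measured value entered the choice. These 7 chromosomes hold 31.0% of all listed sites on 15.4% of the annotated length and with 20.6% of the annotated genes. By the same rule 225 of the 300 lie on the gene-rich chromosomes 16, 17, 19 and 22, 12 on the gene-poor chromosomes 18 and 21, and 63 on chromosome 20.

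The series measured 5-formyluracil in genomic DNA of the cultured line CAL-62, which derives from a human thyroid carcinoma. It holds 6 libraries in 3 groups of 2, which are untreated input, pull-down with the azide-bearing reagent azi-BIAN and library preparation at pH 7.2, and the same pull-down with preparation at pH 8.8. All came from this single cell line, and the labels give no separate cultures, so the spread between the 2 libraries of a group may be technical. At pH 8.8 the modified base is read as C, at pH 7.2 as T, and the values used here are those of the 2 libraries at pH 8.8, called library 1 and library 2. Input and pH 7.2 libraries were not analysed here, so no background level stands beside the values.

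5-Formyluracil arises when the methyl group of thymine is oxidised, by radicals or by enzymes of the TET family. It is removed by base excision repair, in which glycosylases such as SMUG1 cut the base out. Human chromosomes differ widely in gene content. Chromosome 19 is known for its high gene density, GC content and clusters of zinc finger genes. Chromosomes 17, 22 and the short arm of 16 are also rich in genes, and chromosome 18 is poor in them. Chromosome 21 is classed as gene-poor by the rule of choice. By the annotation used here it has 20.02 genes per Mb and chromosome 18 has 13.8, against 18.6 on all chromosomes outside 16 to 22. For protein-coding genes these values are 5.71, 3.37 and 5.96 per Mb. Chromosomes 21 and 22 are acrocentric, with a very short arm that carries ribosomal RNA genes.

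Of the 300 sites, 3 lay in a promoter window, which RefSeq gives as 250 bases before to 50 after the start of a transcript (build GRCh38.p14). Their windows are shown because they are the members for which the surrounding sequence was at hand, and the listed base can be read in place. Each is printed 5′ to 3′ on the gene's strand, and the single capital marks the listed base, which is A where the modified thymine lies on the opposite strand.
CYKILR: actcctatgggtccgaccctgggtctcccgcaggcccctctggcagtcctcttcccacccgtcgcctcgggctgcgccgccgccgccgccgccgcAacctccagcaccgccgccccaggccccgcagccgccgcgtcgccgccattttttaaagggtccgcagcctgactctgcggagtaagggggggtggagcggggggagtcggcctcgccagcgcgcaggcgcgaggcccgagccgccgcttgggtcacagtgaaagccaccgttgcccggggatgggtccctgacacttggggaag
GNRH2: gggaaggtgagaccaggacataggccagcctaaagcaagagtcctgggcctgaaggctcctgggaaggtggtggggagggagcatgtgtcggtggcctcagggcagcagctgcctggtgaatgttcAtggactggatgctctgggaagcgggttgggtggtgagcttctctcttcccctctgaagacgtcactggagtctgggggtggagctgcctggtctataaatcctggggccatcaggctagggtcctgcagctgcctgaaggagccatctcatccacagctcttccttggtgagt
SSTR3: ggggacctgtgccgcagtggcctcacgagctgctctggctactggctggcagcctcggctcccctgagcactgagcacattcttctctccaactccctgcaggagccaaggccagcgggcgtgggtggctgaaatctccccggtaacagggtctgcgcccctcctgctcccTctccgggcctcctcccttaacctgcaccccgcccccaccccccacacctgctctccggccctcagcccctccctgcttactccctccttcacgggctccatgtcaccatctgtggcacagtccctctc

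The window of CYKILR, a long non-coding RNA gene, spans chr19:36309360-36309659 on the plus strand. Its site, at position 36309455 on the minus strand, lies 155 bases before the start and had 5 C reads of 12 in library 1 and 4 of 12 in library 2. The window of GNRH2, the gene of a second gonadotropin-releasing hormone, spans chr20:3043372-3043671 on the plus strand. Its site, at position 3043498 on the minus strand, lies 124 bases before the start and had 4 of 13 and 6 of 16 C reads. The window of SSTR3, a somatostatin receptor gene, spans chr22:37212428-37212727 on the minus strand. Its site, at position 37212556 on the same strand, lies 79 bases before the start and had 4 of 14 and 4 of 11 C reads. The start meant is that of a transcript. The CYKILR and SSTR3 sites lie inside the full extents of their genes, which span chr19:36269084-36321291 and chr22:37204237-37220548. In all 3 the RefSeq window has a thymine at the listed position on the strand that the deposited table gives.

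On the strand of the thymine, the 10 bases on either side of each of these 3 sites are printed for comparison, with the thymine in capitals.
CYKILR: tgctggaggtTgcggcggcgg
GNRH2: atccagtccaTgaacattcac
SSTR3: tcctgctcccTctccgggcct
The base before the thymine was T, A and C in that order, and the base after it was G, G and C. With 3 sequences this is a description of these sites only. GC content was 73.0% in the CYKILR window, which holds 34 CG dinucleotides, 59.7% in the GNRH2 window with 3, and 67.0% in the SSTR3 window with 11. Over the 7607 windows of the 7 chromosomes the median GC content was 61.7%, with 39% at the 5th and 78.7% at the 95th percentile, and all 3 windows lay between these percentiles. These windows cover 0.450% of the annotated length of the 7 chromosomes and held 1.0% of their sites. The 0.450% pools the chromosomes by length, and the sites are not spread by length. Not every annotated gene has a window, so sites near the starts of the others are not among these 3.

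Coverage at the 300 sites added up to 5393 reads in library 1, 1548 of them C, and 4491 reads in library 2, 1315 of them C. In each library all listed sites had 10 or more reads, 3 or more of them C, and a C share between 20% and 50%. The lowest number of C reads that these limits allow was found at 142 of the 300 sites (47.3%) in library 1 and at 143 (47.7%) in library 2. Over all 967 sites these shares were 51.2% and 47.9%. A site's 95% Wilson interval over both libraries had a median width of 29.9 percentage points, and it held 20% at 251 of the 300 sites. PCR reads are not independent molecules, so intervals here cover counting error only.

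Whether sites follow the length of these chromosomes was asked first. The order of density was 19, 20, 17, 22, 16, 21 and 18. Chromosome 19 had 84 sites, or 1.44 per Mb of annotated range (exact 95% Poisson interval 1.14 to 1.78), and chromosome 20 had 63, or 0.981 per Mb (0.754 to 1.26). Chromosomes 17 (57 sites, 0.686 per Mb), 22 (27 sites, 0.674 per Mb) and 16 (57 sites, 0.632 per Mb) were close to one another. Chromosome 21 had 7 sites (0.168 per Mb, 0.0676 to 0.346) and chromosome 18 had 5 (0.0623 per Mb, 0.0202 to 0.145). The other 17 chromosomes, X and Y included, together had 0.264 per Mb (0.245 to 0.285). Whether this line carries a Y chromosome was not analysed here.

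Against the share of annotated length, 5 of the 7 chromosomes had more sites than length predicts, where 33.3% of all 24 chromosomes did (exact two-sided binomial test for each, Benjamini-Hochberg adjusted over the 24). The ratios of observed to expected sites were 4.43 for chromosome 19 (exact adjusted p = 1.33e-27), 3.03 for 20 (2.44e-13), 2.11 for 17 (9.34e-07), 2.08 for 22 (0.00113) and 1.95 for 16 (9.26e-06). Chromosome 18 had fewer (ratio 0.192, exact adjusted p = 4.11e-06), as 37.5% of all chromosomes did, and chromosome 21 did not pass the test (ratio 0.518, exact adjusted p = 0.0994). With annotated genes as the expectation chromosomes 17 (1.29, exact adjusted p = 0.0743) and 22 (1.30, 0.206) no longer passed, and with protein-coding genes 19 did not either (1.202, exact adjusted p = 0.133). Among sites with at least 15 reads in both libraries the calls of 17 (1.35, exact adjusted p = 0.389), 18 (0.421, 0.207) and 22 (1.97, 0.178) were lost. Of the 6 neighbouring steps in the order of density, 1 passed an exact conditional binomial test adjusted over the 6. That was the step from chromosome 16 to 21 (ratio 3.76, 95% interval 1.71 to 9.78, exact adjusted p = 0.00128). The step from 19 to 20 (ratio 1.46, 1.04 to 2.06) had an exact adjusted p of 0.0765 and that from 20 to 17 (1.43, 0.984 to 2.09) an exact adjusted p of 0.106, so the order among the denser chromosomes was not settled. Chromosomes 21 and 18 did not differ by this test either (ratio 2.70, 0.737 to 10.8, exact adjusted p = 0.185).

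**Figure D1:**
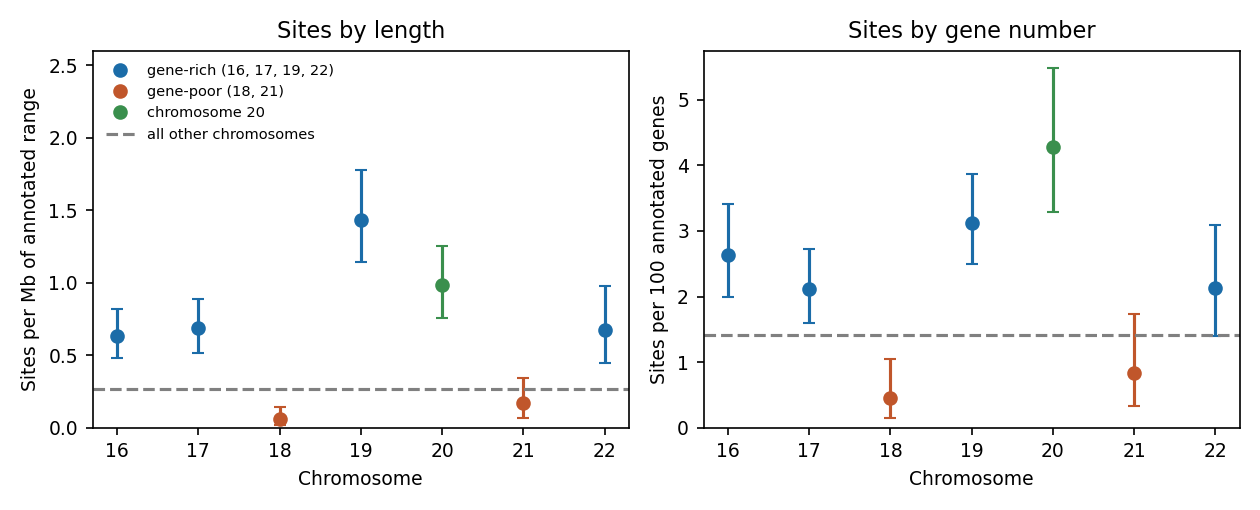
Sites per Mb of annotated range (left) and per 100 annotated genes (right) on chromosomes 16 to 22; points are counts over both libraries, bars exact 95% Poisson intervals, and the dashed line the value of all other chromosomes together. Chromosome 19 is highest by length (1.44 per Mb), chromosome 20 by gene number (4.28 per 100 genes), and 18 and 21 are lowest on both scales.

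The contrast between classes was large. The gene-rich chromosomes had 0.828 sites per Mb and the gene-poor ones 0.0984, a ratio of 8.41 (95% interval 4.72 to 16.5, exact conditional binomial test, exact adjusted p = 9.45e-23 over 4 contrasts). Tests of this kind treat each site as independent. They do not measure the spread between chromosomes of a class, which was 0.632 to 1.44 per Mb among the gene-rich ones. Measured per 100 annotated genes, the gene-rich chromosomes had 2.55 sites and the gene-poor ones 0.619, a ratio of 4.12 (2.31 to 8.09, exact adjusted p = 6.69e-09). With protein-coding genes alone as the expectation the ratio was 2.44 (exact adjusted p = 0.00102). All 7 chromosomes together had 2.48 times the density of the rest of the genome (2.16 to 2.84, exact adjusted p = 1.03e-33), and 1.73 times with gene number as the expectation (1.504 to 1.98).

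Chromosome 20 stood with the gene-rich chromosomes by length and above them by genes. Its annotated gene density, 22.9 per Mb, is below the 32.5 of the gene-rich class as a whole and lies between the 24.02 of chromosome 16 and the 20.02 of chromosome 21. By length its site density did not differ detectably from that of the gene-rich chromosomes (ratio 1.19, 95% interval 0.882 to 1.57, exact adjusted p = 0.231). Without chromosome 19 in that class the ratio was 1.48 (1.09 to 2.01, exact adjusted p = 0.0124). Per annotated gene it was 1.68 (1.25 to 2.23, exact adjusted p = 0.000512) and per protein-coding gene 2.04 (1.51 to 2.70, exact adjusted p = 6.07e-06). Against chromosomes 18 and 21 it was 9.97 times denser (5.33 to 20.3, exact adjusted p = 1.82e-18), which became 6.92 per annotated gene and 4.97 per protein-coding gene. Measured by genes, chromosome 20 had 4.28 sites per 100, chromosome 19 had 3.13, 16 had 2.63, 22 had 2.12, 17 had 2.11, 21 had 0.839 and 18 had 0.452.

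Copy number and read depth outside the listed sites were not analysed here, and their part in these densities was not tested. Coverage at the sites themselves was higher on chromosome 20 than on the gene-rich chromosomes, mainly in library 1. There the mean was 20.7 reads per site against 17.2 on the gene-rich chromosomes, and 18 of 63 sites (28.6%) had 25 reads or more against 18 of 225 (8.0%). In library 2 the means were 15.4 and 14.9, and 3 of 63 (4.76%) and 7 of 225 (3.11%) sites had 25 reads or more. The gap between chromosome 20 and the gene-rich class was thus 3.42 reads in library 1 and 0.517 in library 2 (mean 1.97 ± 2.05, SD, n = 2), within the spread between libraries. The limit of 25 reads was chosen after seeing the data. Higher coverage was not particular to chromosome 20, as the 5 sites of chromosome 18 had means of 21.8 reads in library 1 and 14.4 in library 2.

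Site density was also set against local gene density in windows of 1 Mb. Pooled over the gene-rich chromosomes it was 0.0889 sites per Mb (95% interval 0.0242 to 0.228) in windows of 0 to 9 genes and 0.356 (0.203 to 0.577) at 10 to 19 genes. It was 0.741 (0.570 to 0.948) at 20 to 39 genes and 1.40 (1.17 to 1.67) at 40 genes or more. Neighbouring intervals overlapped slightly at the lower steps and were apart between 20 to 39 genes and 40 or more. Chromosome 20 had higher values at each step, 0.545 (0.2002 to 1.19), 0.684 (0.364 to 1.17), 1.12 (0.744 to 1.62) and 1.88 (1.05 to 3.09), but its intervals overlapped those of the gene-rich class at each. The gene-poor chromosomes stayed low, with 3 sites in 33 windows of 20 to 39 genes (0.0909 per Mb, 0.0187 to 0.266). That interval lies below those of the gene-rich class, of chromosome 20 and of all other chromosomes (0.417, 0.372 to 0.466) at the same step. Windows of 40 genes or more were too few there (4, with 1 site) to compare. The pooled values mix chromosomes, and 39 of the 92 gene-rich windows of 40 genes or more lie on chromosome 19. Taken singly, chromosomes 16, 17, 19 and 20 had higher values at each step, whereas chromosome 22 had 0.833 at 20 to 39 genes and 0.75 at 40 or more, and 18 and 21 showed no steady rise.

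**Figure D2:**
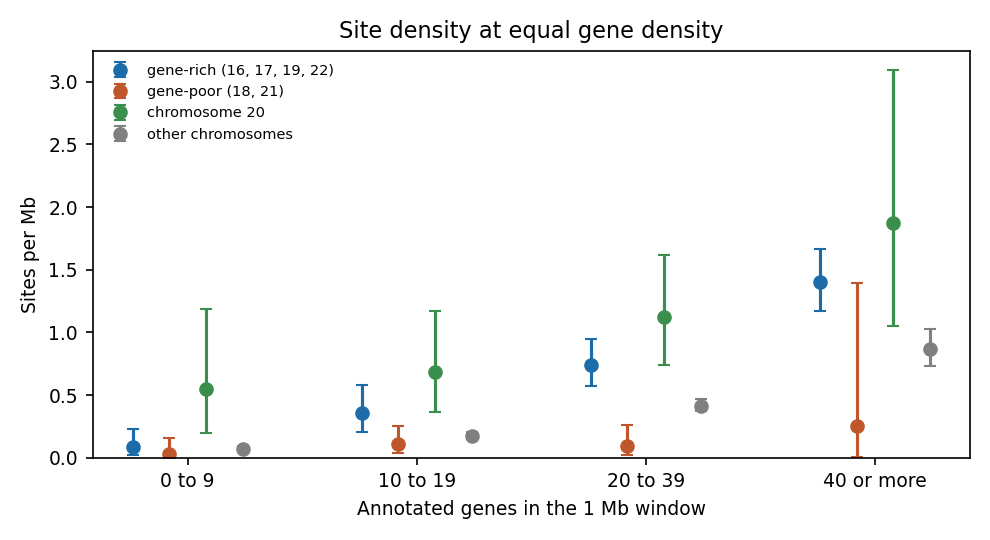
Sites per Mb in windows of 1 Mb grouped by their number of annotated genes, for the gene-rich chromosomes, the gene-poor ones, chromosome 20 and all other chromosomes; bars are exact 95% Poisson intervals. At 20 to 39 genes the gene-poor chromosomes (0.0909) lie below the gene-rich ones (0.741), and chromosome 20 (1.12) is the highest of the 4.

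Of the 449 windows on the 7 chromosomes, 162 (36.1%) held a site, against 18.7% of 2502 windows elsewhere. A site was present in 61.4% of windows on chromosome 19, 58.7% on 20, 41.0% on 22, 39.02% on 17, 37.1% on 16, 15% on 21 and 3.797% on 18. The fullest window, from 18000001 to 19000000 of chromosome 19, held 6 sites among 49 genes. They include the site shared by the overlapping genes GDF1 and CERS1, a growth factor and a ceramide synthase, and those in PDE4C, a cAMP phosphodiesterase gene, and COPE, a coatomer subunit gene. The window from 1000001 to 2000000 of the same chromosome held 5, in CBARP, PLK5, REXO1 and TCF3 and 1 outside genes. The window from 49000001 to 50000000 of chromosome 20 also held 5, among them sites in STAU1, ZFAS1 and SPATA2. Windows of 4 sites numbered 9, and the first of them by chromosome and position were those starting at 2000001 and 11000001 of chromosome 16. The former held sites in CASKIN1 (4 of 18 and 4 of 13) and MIR3677HG, and the latter in LOC105371082 and in LITAF, a gene of endosomal sorting (4 of 19 and 3 of 12).

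Placement along the arms was asked next, with each chromosome's annotated range split at its largest gene-free stretch, which takes the place of the centromere. Over the 7 chromosomes the short arms had 127 sites in 132 Mb (0.962 per Mb) and the long arms 173 in 295 Mb (0.586 per Mb), a ratio of 1.64 (95% interval 1.29 to 2.08, exact conditional binomial test, exact adjusted p = 0.000273). Chromosome 19 differed most. Its short arm had 54 sites (2.24 per Mb) and its long arm 30 (0.971 per Mb), a ratio of 2.31 (1.45 to 3.74, exact adjusted p = 0.000949). Both arms of chromosome 19 have nearly equal gene density, 48.3 and 49.3 genes per Mb. The pooled ratio sums arms over chromosomes, so it also holds differences in density between chromosomes. Chromosome 19, the densest, gives 24.1 of the 132 Mb of short arm and 30.9 of the 295 Mb of long arm. Without chromosome 19 the ratio over the other chromosomes was 1.25 (exact adjusted p = 0.311), and at 15 reads in both libraries the ratio over all 7 was 1.45 (exact adjusted p = 0.139).

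The short arm of chromosome 17 was also denser than the long arm, with 25 sites against 32 (1.11 against 0.569 per Mb, ratio 1.94, 1.10 to 3.38, exact adjusted p = 0.0480). With gene number as the expectation that call was lost (ratio 1.70, exact adjusted p = 0.124), while the ratio of chromosome 19 held in the same fit. Chromosome 16 had 27 and 30 sites on its arms (0.749 and 0.686 per Mb, ratio 1.09, 0.625 to 1.90). Chromosome 20 leaned to the other side, with 19 sites on the short arm and 44 on the long arm (0.726 against 1.23 per Mb, ratio 0.589, 0.325 to 1.03), and did not pass the test (exact adjusted p = 0.112). At 15 reads in both libraries it did (ratio 0.161, exact adjusted p = 0.0154). All 27 sites of chromosome 22 and 6 of the 7 of chromosome 21 lay on the long arm, where nearly all annotated sequence of these chromosomes lies.

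**Figure D3:**
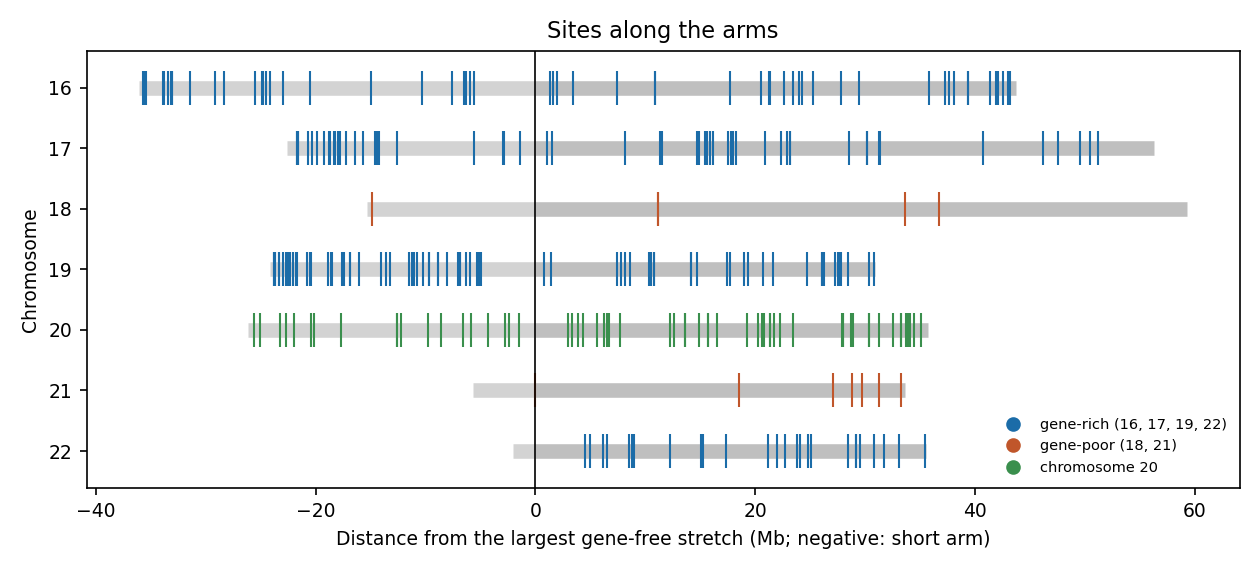
Each tick is a listed site, placed by its distance in Mb from the largest gene-free stretch of its chromosome (vertical line; short arm to the left); bars show the annotated range. The 54 sites on the short arm of chromosome 19 are packed more closely than the 30 on its long arm, and chromosome 18 has 5 sites in all.

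Sites were denser near the ends of the annotated range. Within 5 Mb of an end there were 86 sites in 70 Mb (1.23 per Mb) against 214 in 388 Mb elsewhere (0.552 per Mb), a ratio of 2.23 (1.71 to 2.87, exact conditional binomial test, exact adjusted p = 3.34e-08). The ends also hold more genes, 38.0 per Mb against 24.7, and with gene number as the expectation the ratio was 1.45 (1.11 to 1.86, exact adjusted p = 0.0401). Among sites with at least 15 reads in both libraries (84 sites) it was 1.85 and did not pass (exact adjusted p = 0.0751). These pooled ratios also hold differences between chromosomes, as each gives 10 Mb of ends whatever its length. By chromosome the ratio was 4.01 on 16 (exact adjusted p = 2.72e-05), 2.56 on 19 (0.000298) and 2.38 on 17 (0.0146), and 18, 20, 21 and 22 did not pass. With gene number as the expectation none of these 3 calls was kept (ratios 1.44 to 1.74, exact adjusted p = 0.236 to 0.448).

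The ends differed from one another. The first 5 Mb of chromosome 19 held 19 sites (3.8 per Mb, 2.29 to 5.93), those of 17 held 14 (2.80 per Mb, 1.53 to 4.70) and those of 16 held 11 (2.2 per Mb, 1.10 to 3.94). The last 5 Mb of chromosomes 19 and 20 held 10 sites each, and those of 16 held 8. In the last 5 Mb of chromosome 17, with 190 annotated genes, there was no site, which allows up to 0.738 per Mb (upper bound of the exact 95% Poisson interval). That limit lies below the interval of the opposite end of the same chromosome. No site was listed in the last 5 Mb of chromosome 18 or the first 5 Mb of the annotated ranges of 21 and 22 either. On chromosome 22 those 5 Mb begin at 10.7 Mb and hold 52 annotated genes. They take in its largest gene-free stretch (12.8 to 15.3 Mb), which stands for the centromere. On chromosome 21 the first 5 Mb begin at 5.01 Mb and lie on the short arm, before the gene-free stretch that starts at 10.6 Mb. Both segments are thus unlike the other ends, yet they enter the pooled ratio and those of chromosomes 21 and 22.

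**Figure D4:**
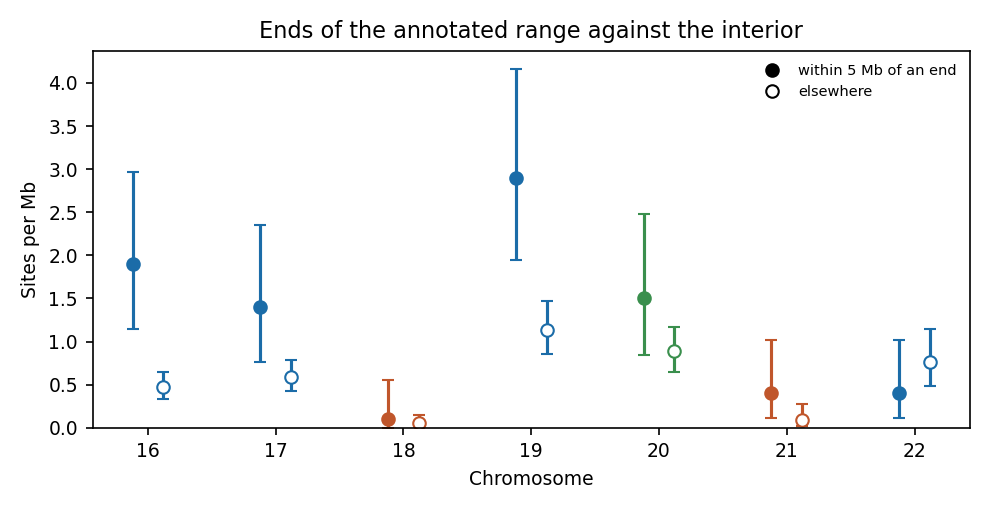
Sites per Mb within 5 Mb of either end of the annotated range (filled) and elsewhere (open) on each chromosome, with exact 95% Poisson intervals. The difference passed the test on chromosomes 16 (1.90 against 0.474), 17 (1.40 against 0.588) and 19 (2.90 against 1.13). On 17 all 14 sites near an end are at the short-arm end. On 18, 20 and 21 the value was also higher at the ends, and on 22 lower, without passing.

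Long stretches of these chromosomes had no listed site. The longest of each was 31.6 Mb on chromosome 18 (with 105 protein-coding genes), 20.96 Mb on 21 (66), 17.3 Mb on 16 (68), 9.37 Mb on 17 (84), 9.29 Mb on 19 (53), 9.06 Mb on 22 (40) and 6.77 Mb on 20 (20). On every chromosome but 17 that stretch takes in the largest gene-free stretch itself. On chromosome 17 it runs from position 58331685, the site in MIR142HG, to 67698170 on the long arm.

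The level of the signal was compared in the same way. The mean C share over sites was 30.1% ± 0.169 (SD, n = 2 libraries) on chromosome 16, 30.2% ± 0.581 on 17, 30.2% ± 2.08 on 18, 29.3% ± 0.715 on 19, 29.0% ± 0.693 on 20, 27.1% ± 1.61 on 21 and 28.7% ± 2.71 on 22. The gene-rich chromosomes exceeded the gene-poor ones by 2.27 points in library 1 and 0.283 points in library 2 (1.28 ± 1.41, SD, n = 2), a difference within the spread between libraries. Over all 7 chromosomes the mean was 29.5% ± 0.519 and over the rest of the genome 29.4% ± 0.995, a difference of 0.0873 ± 0.476 points that changed sign between the libraries. At 15 reads in both libraries it was -0.470 ± 0.00556 points, below 0 in both. Both libraries come from a single group, so no permutation test between groups was possible. Within the table's limits of 20% and 50% only a narrow range of shares can appear, which bounds any such difference.

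**Figure D5:**
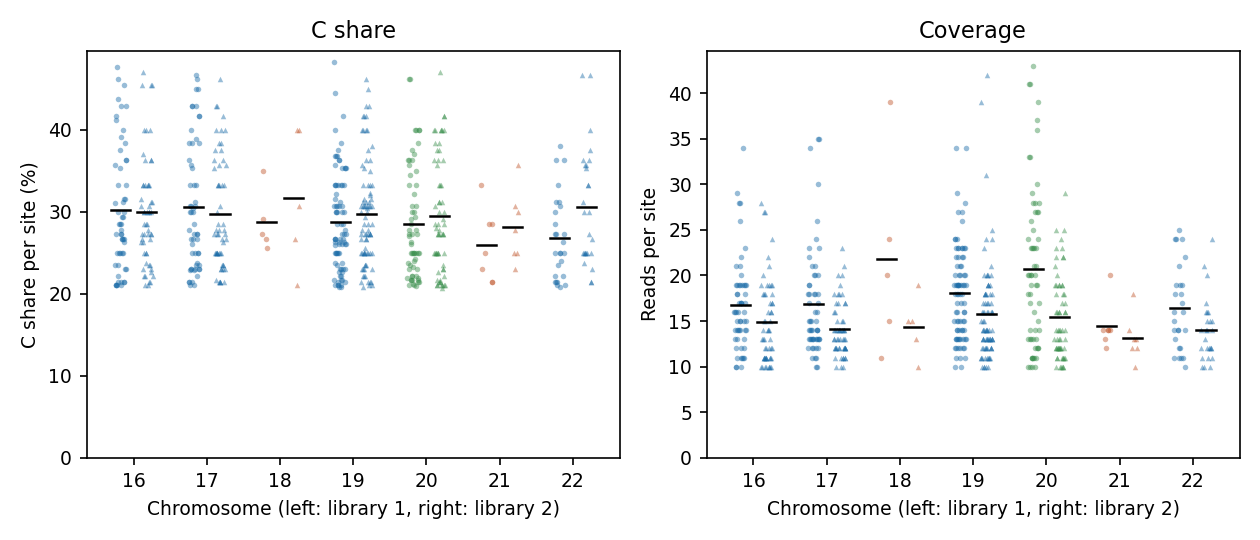
C share (left, %) and reads (right) of each of the 300 sites by chromosome, library 1 as circles and library 2 as triangles, with the mean over sites as a black line. Mean shares lie between 25.9 and 31.7% on every chromosome and in both libraries, and chromosome 20 reaches 43 reads in library 1.

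Across sites the shares of the 2 libraries had a low correlation on these chromosomes together (Pearson r = 0.0863 across 300 sites, which share their libraries and the table's limits). The median gap between libraries at a site was 6.11 percentage points. It was widest, 25.3 points, at position 31911817 of chromosome 20 in TTLL9, a gene of the tubulin ligase-like family, with 5 of 23 C reads in library 1 and 8 of 17 in library 2.

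Of the 300 sites, 203 (67.7%, exact 95% interval 62.1 to 72.9) lay in an annotated gene, and genes cover 56.3% of the annotated length of these chromosomes. The share ran from 59.6% on chromosome 16 to 73.8% on chromosome 19 among those with over 20 sites, where genes cover 54.8% and 63.6% of the length. The pooled 56.3% weights chromosomes by length, whereas 84 of the 300 sites lie on chromosome 19. The annotated length also takes in the largest gene-free stretch of each chromosome, 10.4 Mb on chromosome 16. Without these stretches the shares of length in genes would be higher. Protein-coding genes held 179 sites, genes of non-coding RNAs alone 19, other genes such as pseudogenes 5, and 97 lay outside genes. The latter were a median of 10.8 kb from the nearest protein-coding gene, 11 of them within 1 kb and 10 beyond 100 kb. The most remote, at position 64162215 of chromosome 16, was 782 kb from CDH11 and had 5 of 17 and 8 of 17 C reads. Position relative to exons, introns and UTRs was not analysed here.

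Sites lay near transcript starts more often than evenly spaced positions did. Starts here are only those of transcripts with a promoter window. Of the 300 sites 115 (38.3%) were within 10 kb of such a start, against 21.4% of positions placed every 1 kb along the same chromosomes. Within 1 kb there were 17 (5.67%), against 2.67%. Among 612 of the 667 sites on other chromosomes, those on chromosomes with such starts, these shares were 26.8% against 15.6% and 1.96% against 1.85%. On chromosome 19 the excess was small, 47.6% against 39.7% within 10 kb, and on chromosome 16 it was 35.1% against 18.1%. These shares are descriptions with no test. The neighbourhood was also richer in genes: the mean number of annotated genes within 500 kb was 42.4 for these sites and 26.5 for the evenly spaced positions. Evenly spaced positions weight chromosomes by length, and the sites do not. They also fall in the largest gene-free stretches, 10.4 Mb on chromosome 16, which lowers their shares near starts. Chromosome 19, where 39.7% of such positions lie within 10 kb, holds 84 of the 300 sites. The pooled gaps therefore also hold differences between chromosomes.

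The 14 sites within 1 kb of such a start besides those in the 3 printed windows lay on chromosomes 16, 17, 19, 20 and 22. On chromosome 16 these were the sites in MIR3677HG (6 of 16 and 4 of 12 C reads), in PAGR1 (4 of 11 and 6 of 24), which encodes a protein of a histone methyltransferase complex, and 693 bases from the claudin gene CLDN6 (3 of 11 and 3 of 10). On chromosome 17 they lay 402 bases from NXN, the nucleoredoxin gene (6 of 14 and 4 of 14), in SPATA22, a gene of meiotic recombination (6 of 24 and 5 of 14), in SCRN2 (4 of 12 and 3 of 12) and in MIR142HG, the host gene of a blood-cell microRNA (6 of 18 and 4 of 10). Chromosome 19 added CIMAP1D, PLPPR3 and a pair in SYCE2. The others were 255 bases from the cystatin gene CST5, in the non-coding gene ZFAS1 (10 of 27 and 3 of 12 C reads) and 367 bases from SHANK3, a postsynaptic scaffold gene (5 of 15 and 6 of 24). Those of these genes that no other rule picks out were chosen after their values were seen. Genes without a promoter window add no start, so sites near their starts can be missing from this list. The site at 50165968 of chromosome 17 lies 0.037 kb outside SGCA, for example, but the nearest start used is 15.3 kb away.

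Both strands carried sites in near-equal numbers, 151 plus and 149 minus (50.3% plus, 44.5 to 56.1, two-sided exact binomial p = 0.954), and none of the 7 chromosomes passed the exact test against an equal split (exact adjusted p = 0.525 to 1). Relative to the gene, the strand was known for 134 sites in protein-coding genes. The thymine was on the sense strand at 59 of them and on the template strand at 75 (44.0% sense, 35.5 to 52.9, exact binomial p = 0.195). Among chromosomes with 10 or more such sites the share was lowest on chromosome 17, where 6 of 22 were on the sense strand (27.3%, 10.7 to 50.2), and it did not pass after adjustment over the 7 chromosomes (exact adjusted p = 0.367). All 3 sites of ABR were among the 16 on the template strand.

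Chromosome 18 had 5 sites, all of which are given here. The first, in COLEC12, a scavenger receptor gene, lay 0.470 Mb from the end of the annotated range at position 481480 and had 3 of 11 and 4 of 10 C reads. A pair 14 bases apart on the minus strand, at 32068964 and 32068978, lay in RNF125, a ubiquitin ligase gene of antiviral signalling. It had 7 of 20 and 7 of 24 C reads in library 1, and 4 of 13 and 4 of 19 in library 2. The site at 54539205 lay outside genes and had the highest coverage of the chromosome, 39 reads in library 1 and 15 in library 2, of which 10 and 4 were C. The last, at 57616143, lay in NARS1, the cytosolic asparaginyl-tRNA synthetase (4 of 15 and 6 of 15). Only the RNF125 pair was within 1 Mb of another site.

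Chromosome 21 had 7 sites, 4 of them in the last 5 Mb. The site in TPTE, a phosphatase gene expressed in testis, at 10601709, was the only one on the short arm (4 of 14 and 3 of 12 C reads). The next, at 31561472, lay outside genes (3 of 13 and 3 of 10). DSCAM, a neuronal adhesion gene, held a site at 40138896 (5 of 20 and 5 of 14). PRDM15, a zinc finger regulator gene, held the site at 41829999 (4 of 14 and 4 of 13). Then came PDE9A, a cGMP phosphodiesterase gene, at 42731095 (3 of 14 and 3 of 13) and PFKL, the liver phosphofructokinase gene, at 44318874 (3 of 14 and 5 of 18). MCM3AP, a gene of mRNA export, held the last at 46257856 (4 of 12 and 3 of 12). Summed shares on this chromosome ran from 22.2 to 29.6%, the lowest maximum among the 7 chromosomes.

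Chromosome 16 had the widest range of summed shares, 21.1 to 46.9%. After its first site by share, at position 88998123 (10 of 21 and 5 of 11 C reads), which lies 20.9 kb from the corepressor gene CBFA2T3, came HS3ST4 (12 of 26 and 5 of 11) and the site at 75929628 (5 of 11 and 4 of 10). ANKRD11, which encodes a chromatin regulator, was next with 5 of 12 and 4 of 10. With 21 to 37 reads over both libraries their intervals all overlapped. The deepest site of the chromosome was in SLC7A5, the large neutral amino acid transporter, with 6 of 28 and 6 of 27 C reads and thus among the lowest shares (21.8%, Wilson interval 12.9 to 34.4). RAB40C, a Rab GTPase gene that lies within the pseudogene LOC102723945, held 2 sites 7.67 kb apart, with 3 of 13 and 3 of 10 at 615807 and 14 of 34 and 4 of 14 at 623476. The chromosome began with MRPL28, a mitochondrial ribosome gene (4 of 14 and 5 of 16), and ended at 89601635 near the copine gene CPNE7 (5 of 13 and 4 of 15).

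Other members of chromosome 16 fell under the lists or pairs. RANBP10 held sites 38.0 kb apart with 9 of 29 and 5 of 19, and with 3 of 14 and 4 of 18 C reads. The non-coding gene LOC105371082 held sites at 11261706 (4 of 17 and 4 of 14) and 11337470 (6 of 17 and 3 of 13). CCL22, a chemokine gene, had 3 of 12 and 4 of 11, and CDH13, a cadherin without a cytoplasmic tail, had 4 of 19 in each library. Some further sites are named after their values were seen. FTO, an RNA demethylase gene, had 6 of 22 and 5 of 15, ITGAL, an integrin of leukocytes, had 3 of 11 and 4 of 12, and the transcription factor subunit gene CBFB had 3 of 13 and 5 of 21. The pair outside genes at 85775180 and 85775216, on opposite strands, had 5 of 19 and 4 of 15 C reads in library 1 and 3 of 10 and 4 of 12 in library 2.

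On chromosome 17 the highest summed share was in SMIM36, with 6 of 14 in each library. The site at 21257269, 3.86 kb from NATD1, followed with 9 of 20 and 5 of 14. ATP2A3, a calcium pump of the endoplasmic reticulum, had 14 of 30 in library 1 and 3 of 12 in library 2, so that its shares of 46.7% and 25% were among the widest apart. The site at 8309159, 1.08 kb from ARHGEF15, had 5 of 13 and 4 of 10. The deepest site was the middle one of ABR, at 1093243, with 12 of 34 and 5 of 18, next to 3 of 14 and 4 of 17 at 1017577 and 7 of 23 and 3 of 14 at 1144709. These 3 sites lie over 127 kb of a gene of 226 kb. Next in depth was the pair in LINC00671, 7 bases apart on opposite strands, with 8 of 35 at both members in library 1 and 5 of 12 and 3 of 12 in library 2.

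The last site of chromosome 17 lay in TK1, the thymidine kinase of the salvage pathway, at 78181499 (4 of 15 and 5 of 23). From there to the end of the annotated range are 5.03 Mb without a listed site. A pair 3 bases apart on opposite strands, at 57170388 and 57170391, had 3 of 13 C reads at both members in library 1 and 6 of 18 and 6 of 16 in library 2. A pair 113 bases apart lay in LOC105371818, and its second member also in SGCA, a sarcoglycan gene of muscle (5 of 14 and 5 of 13, then 4 of 16 and 6 of 16). Named after their values were seen are PER1, a core gene of the circadian clock (5 of 16 and 5 of 18), NLRP1, an inflammasome sensor gene (3 of 10 and 4 of 12), and MPO, the myeloperoxidase gene (7 of 18 and 3 of 12).

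The 84 sites of chromosome 19 were the most numerous of any of the 7 chromosomes. SHC2 had the highest summed share (14 of 29 and 4 of 13), followed by the site shared by GDF1 and CERS1 (8 of 20 and 6 of 13). The site at 19207639 had 5 of 14 and 6 of 14 and lay 4.22 kb from NR2C2AP, and PPP1R37, a gene of a phosphatase regulator, had 5 of 13 and 4 of 10. At the 2 deepest sites library 2 had more reads than library 1. TMEM161A had 6 of 23 in library 1 and 10 of 39 in library 2, and CBARP, a regulator of calcium channels, had 4 of 14 and 9 of 42. The first site of the chromosome, at 415039 outside genes, had 12 of 34 and 4 of 19, and the last, at 58497819, had 4 of 16 and 4 of 18 and lay 0.514 kb from the bile acid gene SLC27A5.

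Several genes of chromosome 19 held 2 sites. RYR1, the calcium release channel of skeletal muscle, had them 58.3 kb apart, with 7 of 19 and 4 of 10 at 38447640 and 4 of 14 and 4 of 17 at 38505892. SIPA1L3, a GTPase-activating protein gene, had them 229 kb apart (4 of 19 and 4 of 12, then 4 of 12 and 5 of 20). PIP5K1C, a phosphoinositide kinase gene, had 7 of 19 and 4 of 11 at one site and 4 of 16 in each library at the other, 39.1 kb away. In AP3D1, an adaptor complex subunit gene, the distance was 1.16 kb (5 of 23 and 3 of 13, then 5 of 23 and 6 of 19). SYCE2, a gene of the synaptonemal complex, held a pair 7 bases apart on the plus strand (4 of 19 and 4 of 16, then 3 of 12 and 3 of 13). Named after their values were seen are DNMT1, the maintenance DNA methyltransferase (6 of 18 and 3 of 11), the insulin receptor gene INSR (6 of 18 and 5 of 16), CACNA1A, a calcium channel gene of neurons (3 of 14 and 5 of 17), and ERCC1, a nuclease subunit of excision repair (12 of 34 and 4 of 10).

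On chromosome 20 summed shares reached no higher than 40%. That value was in CFAP61, a cilia gene, with 4 of 10 in each library. TASP1, the protease that cleaves the histone methyltransferase KMT2A, held a pair 9 bases apart on the plus strand with 6 of 13 C reads at both members in library 1 and 4 of 13 and 4 of 14 in library 2. PLCB1, a phospholipase gene, had 4 of 11 and 4 of 10. Depth was greatest at 56559695 outside genes (9 of 43 and 4 of 18), in SHLD1, a subunit of the shieldin complex that protects broken DNA ends (9 of 39 and 4 of 19), at 50287413 outside genes (10 of 29 and 6 of 29) and in BCAS4 (10 of 36 and 8 of 22). Summed shares at these 4 sites ran from 21.3 to 31.0%.

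The first site of chromosome 20 lay in TCF15, a transcription factor gene of the paraxial mesoderm (4 of 14 and 4 of 10), and the last in RTEL1, a helicase of telomere maintenance (5 of 18 and 4 of 10). CDH4, the R-cadherin gene, held sites 1995 bases apart with 4 of 16 and 5 of 23, and with 3 of 12 and 5 of 13. PTPRT, a receptor phosphatase gene, held a pair 47 bases apart on opposite strands (5 of 13 and 4 of 19, then 4 of 17 and 3 of 11). Outside genes lay a pair at 58941210 and 58941213, with 9 of 41 at both members in library 1 and 5 of 16 and 5 of 12 in library 2. Another, at 44284570 and 44284580, had 4 of 11 at both members in library 1 and 7 of 25 and 7 of 24 in library 2. In the window of 5 sites near 49 Mb, STAU1, which encodes an RNA-binding protein, had 5 of 15 and 4 of 11, and SPATA2 had 5 of 23 and 5 of 22.

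Chromosome 22 had 27 sites and none of a summed share above 33.3%. A pair at 44456318 and 44456324, 6 bases apart on the minus strand and outside genes, had identical counts at both members, 6 of 24 in library 1 and 7 of 15 in library 2. ADSL, the adenylosuccinate lyase of purine synthesis, had 8 of 21 and 3 of 12, and the site at 39332438, 12.8 kb from the ribosomal protein gene RPL3, had 3 of 10 and 4 of 11. CCDC157 had the deepest site (6 of 25 and 6 of 16). CABIN1, an inhibitor of calcineurin, held sites 117 kb apart, with 4 of 18 and 3 of 11, and with 4 of 11 and 5 of 21. The first site of the chromosome lay in GNB1L at 19805675 (5 of 19 and 6 of 17), 9.06 Mb into the annotated range. APOBEC3F, a cytidine deaminase gene of antiviral defence, had 3 of 14 and 5 of 20.

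Sites lay in 202 genes of these chromosomes, which included 169 protein-coding genes and 25 genes of long non-coding RNAs, and 18 of the 202 had more than 1 site. The protein-coding genes with a site had a median length of 53.1 kb, against 17.7 kb over all 4948 protein-coding genes of the 7 chromosomes. A longer gene is more likely to hold any position placed evenly, so this comparison cannot show a preference for long genes. Close pairs within 50 bp numbered 15 and took in 30 sites (10.0%, against 7.95% of sites elsewhere), 12 of these 30 on chromosome 19. Their median distance was 8 bases (1 to 47). The strand was the same in 7 pairs and opposite in 8. The closest, at 14498573 and 14498574 of chromosome 19, were adjacent bases on opposite strands, with 5 of 19 and 7 of 19 in library 1 and 4 of 15 at both in library 2. On the same chromosome lay 3 further pairs on opposite strands and outside genes. That at 17343468 and 17343497 had 5 of 16 and 5 of 21 in library 1 and 3 of 14 and 4 of 16 in library 2. The pair at 41874854 and 41874860 had 3 of 13 at both members in library 1 and 4 of 17 and 3 of 14 in library 2. At 53738808 and 53738821 the values were 4 of 13 and 6 of 20, then 7 of 20 and 4 of 15. C reads were equal in both libraries in 7 of the 15 pairs. Members of a pair can be covered by the same reads and are not independent.

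Gene lists and gene clusters of these chromosomes were counted beside all protein-coding genes, of which 169 (3.42%) held a site. The lists were drawn up with earlier results of these data known. Of the 24 lists, 17 had no member with a site. Among these were the 8 genes of pyrimidine repair on these chromosomes, the 2 thyroid genes, 83 keratin-associated protein genes (KRTAP), 36 olfactory receptor genes, 29 keratin genes, 15 kallikrein genes (KLK), 14 killer-cell receptor genes (KIR2 and KIR3) and 10 HOXB genes. Counts for clusters of near-identical copies are uncertain. Several of these lists hold short genes. The KRTAP genes have a length of 0.0656 Mb together, the keratin genes 0.179 Mb and the HOXB genes 0.0768 Mb, against 209 Mb for all protein-coding genes. A share by gene takes no account of length, so lists of short genes without a site cannot show that sites avoid them. Genes named ZNF, mostly zinc finger regulators, held a site in 4 of 314 (1.27%), namely ZNF469 on chromosome 16 (4 of 19 and 3 of 10) and ZNF610 (7 of 21 and 5 of 12), ZNF444 (8 of 18 and 5 of 20) and ZNF606 (4 of 17 and 6 of 14) on chromosome 19. Over chromosome 19 as a whole 55 of 1444 protein-coding genes (3.81%) held one.

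The other lists with a site were small. Of 15 cadherin genes (CDH) 2 held one, CDH13 and CDH4, both long genes. RAB genes had 2 of 23, RAB40C and RAB8A, a GTPase of membrane traffic (3 of 10 and 4 of 13). CCL genes had 1 of 21 (CCL22) and APOBEC3 genes 1 of 7. The symbols starting with DSC had 1 of 4, but that 1 is DSCAM, which is no desmocollin. Tumour genes had 1 of 15. The remaining lists without a site were CEACAM (12 genes), PSG (10), LILR (11), SERPINB (10), DSG (4), MT1 (8), CST (13), DEFB (13) and MYH (11). CST12P, a cystatin pseudogene outside that list, held a site at 23476921 of chromosome 20 (6 of 20 and 3 of 11).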

How the data were processed

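Per the submitters' processing notes, Trim Galore, Bowtie2 and MACS2 2.2.6 were used with build hg38. The method of calling sites was not given in the sources used here. Deposited counts are reads and C reads per site and library, and the deposited fraction is C reads over reads, per the file headers. It matched the counts to within 1e-09. From a second table of the same sites only the reference base was used, and its 10 number columns were not used.

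Lengths run from the first to the last gene of the RefSeq table (GRCh38.p14) on each chromosome. Of 59679 gene rows, 389 outside the range of genes with a promoter window were left out, as their coordinates appeared to count within scaffolds. This choice, transcript starts, strands of genes and evenly spaced positions were settled after seeing the data. The members, lists and tests were chosen with earlier results of these data known.

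Densities were compared by exact two-sided binomial tests, conditional on length, with Benjamini-Hochberg adjustment and a threshold of 0.05. The tests were tested on simulated data. Named are all sites of chromosomes 18 and 21; on the others the 4 of highest summed share, the 3 deepest, the first and the last; sites within 50 bp of another or in a promoter window; genes with several sites; list members; and the 5 fullest windows of 1 Mb. Some sites that this rule picks out are not reported here. Tests ran in scipy 1.17.1 under Python 3.11.15, tables in pandas 2.3.3 with numpy 2.4.6, and plots in matplotlib 3.10.9.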

Additional observations from a re-analysis of the deposited data

How the results depend on the processing

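Leaving out chromosome 20, keeping the gene rows outside the placed range, and counting only genes with a promoter window were added after seeing the data. No paired analysis was possible because the values used are those of a single group. The number of the 7 chromosomes called moved from 6 to 3 with protein-coding genes as the expectation and to 3 at 15 reads in both libraries, where fewer sites remain by construction. The ratio of chromosome 20 to the gene-rich class came to pass the threshold at 1.68 (gene number), 2.04 (protein-coding genes) and 1.48 (without chromosome 19). The excess at the ends fell to 1.85 at 15 reads (exact adjusted p = 0.0751), and that of the short arms to 1.45 at 15 reads (exact adjusted p = 0.139) and 1.25 without chromosome 19. The plus-strand share, never past the threshold, was 48.1% without chromosome 19. The share in genes was 59.7% for protein-coding genes and 50.0% for genes with a promoter window. At 15 reads the coverage difference between gene-rich and gene-poor chromosomes was -1.85 reads and the share difference between these chromosomes and the rest -0.470 points (SD 0.00556, n = 2). Without each replicate in turn, the share difference between classes was 0.283 to 2.27 points, the coverage difference -0.251 to 1.24 reads, and the share difference to the rest -0.249 to 0.424 points. Turned directions, none of them past the threshold, were the ends of chromosome 18 at 10 Mb (0.753) and at 15 reads (0), of 20 at 15 reads (0.638) and of 22 by genes (1.07), and the arms of 18 with 1 site per cluster (1.29), of 16 at 15 reads (0.373) and by genes (0.715) and of 21 by genes (1.00). The cause was not tested. Of 11 calls for single chromosomes, 8 were lost under at least 1 alternative (density of 17, 18, 19 and 22, ends of 16, 17 and 19, arms of 17), and the arms of 20 gained a call at 15 reads. The contrasts of gene-rich with gene-poor, of 20 with gene-poor and of all 7 with the rest kept direction and call under every alternative run.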
